A study of Homo sapiens with 26 samples.

Results

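The genes described here are 10 that the liver is known for expressing and secreting into blood plasma: ALB, TTR, AMBP, AHSG, FGA, FGB, FGG, SERPINA1, SERPINA3 and F5. They were taken by matching Ensembl identifiers to these symbols, and all 10 were found among the 62703 genes of the Panc10.05 and BxPC3 count tables and the 62754 genes of the ASPC1 table. The study asked how 2 classes of isoforms of HNF4α, made from the P1 and P2 promoters of HNF4A, act in pancreatic ductal adenocarcinoma, and the 26 RNA-seq libraries come from 3 established cell lines of that tumour. In Panc10.05 and BxPC3, doxycycline induced a P1 isoform (P1-a2) or a P2 isoform (P2-a8), with 2 libraries per group. The Panc10.05 control carried GFP (GFP-NC) and the BxPC3 control an empty vector (EV-NC). Controls received doxycycline too: 500 ng/mL in every BxPC3 group, and in Panc10.05 25 ng/mL for P1-a2 and the control but 12.5 ng/mL for P2-a8. In ASPC1, CRISPR interference, in which guides direct repression to a promoter, was aimed at P1 (sgP1, guides sgP1E and sgP1J), at P2 (sgP2, guides sgP2D and sgP2G) or at both (sgDual, guides sgDual2 and sgDual3). Each of these targets had 4 libraries, 2 per guide, and the control guide sgNC had 2. The labels name no doxycycline treatment for ASPC1. Nothing in the labels says that libraries of a group came from separate cultures, so p-values measure the spread between these libraries, which may be technical.

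Plasma proteins are made mostly by hepatocytes. HNF4α is a nuclear receptor that hepatocytes, intestine and pancreas express, and it acts with other liver factors, among them FOXA and C/EBP proteins, at the promoters of many of these genes. Albumin (ALB) and transthyretin (TTR) are carrier proteins. AMBP encodes the precursor of alpha-1-microglobulin and bikunin, and AHSG encodes fetuin-A, an inhibitor of mineral deposition. FGA, FGB and FGG encode the chains of fibrinogen, the protein of the blood clot. SERPINA1 encodes alpha-1-antitrypsin, which inhibits neutrophil elastase, SERPINA3 encodes alpha-1-antichymotrypsin, and F5 encodes coagulation factor V, the cofactor of factor X in the prothrombinase complex.

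Library totals were 34618745 to 46827673 counts in Panc10.05, 26369154 to 37483772 in BxPC3 and 26079388 to 50662077 in ASPC1. A gene was called undetected where no library of a line held more than 3 counts, which corresponds to 0.0585 to 0.116 CPM over the 26 libraries. CPM is the count divided by the library's normalized total over the genes tested, multiplied by 1000000. Floors cover counting error only, because PCR copies of a molecule were not told apart. HNF4A itself moved with the labels: its mean was 0.149 CPM in the Panc10.05 control, 11.8 with P1-a2 and 37.6 with P2-a8, and 0.771, 10.7 and 13.4 CPM in the same groups of BxPC3. In ASPC1 it was 213 CPM with sgNC, 129 with sgP1, 86.5 with sgP2 and 7.99 with sgDual. In edgeR's quasi-likelihood test, with a threshold of 0.05 on the adjusted p, HNF4A did not pass for sgP1 (log2 fold change -0.72, adjusted p = 0.615) or sgP2 (-1.30, adjusted p = 0.0751), and fell by 4.73 on the log2 scale with sgDual (adjusted p = 6.25e-06). Every sgP1 library (109 to 146 CPM) and every sgP2 library (76.7 to 93.9 CPM) nonetheless lay below both sgNC libraries (206 and 220 CPM). All 6 epithelial keratin and adhesion markers were detected in every line, with a summed level of 5824 to 18031 CPM.

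The promoters of the members that carry the results are shown first, as RefSeq gives them on GRCh38.p14 for 250 bases before and 50 after a transcript start, read 5′ to 3′ on the gene's strand. Entries were found for 9 of the 10 members. SERPINA1 and F5 are shown because they are the members expressed in these cells, SERPINA1 with both of its starts, the downstream one being known from hepatocytes. AHSG and SERPINA3 are shown as members that stayed near or under the floor and whose windows hold a searched motif. Capitals mark matches.
SERPINA1 downstream start, chr14:94388553-94388852, minus strand: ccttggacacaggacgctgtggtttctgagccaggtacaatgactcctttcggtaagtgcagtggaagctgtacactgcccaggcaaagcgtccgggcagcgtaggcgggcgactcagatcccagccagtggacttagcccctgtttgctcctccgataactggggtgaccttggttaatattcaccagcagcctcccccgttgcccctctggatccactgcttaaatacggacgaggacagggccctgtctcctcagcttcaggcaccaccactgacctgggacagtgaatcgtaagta
SERPINA1 upstream start, chr14:94390586-94390885, minus strand: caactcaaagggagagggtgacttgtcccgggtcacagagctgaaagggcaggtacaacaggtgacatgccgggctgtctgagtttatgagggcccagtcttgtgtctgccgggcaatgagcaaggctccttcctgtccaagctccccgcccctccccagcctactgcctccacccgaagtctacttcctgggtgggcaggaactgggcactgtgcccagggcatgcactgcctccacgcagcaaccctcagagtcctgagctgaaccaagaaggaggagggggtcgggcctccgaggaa
F5, chr1:169586432-169586731, minus strand: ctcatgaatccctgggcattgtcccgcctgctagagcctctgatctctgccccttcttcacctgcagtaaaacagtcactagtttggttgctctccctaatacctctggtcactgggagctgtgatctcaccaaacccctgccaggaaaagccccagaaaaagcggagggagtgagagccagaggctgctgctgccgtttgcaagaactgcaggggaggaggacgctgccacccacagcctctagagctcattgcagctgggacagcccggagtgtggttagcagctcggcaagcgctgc
SERPINA3, chr14:94612141-94612440, plus strand: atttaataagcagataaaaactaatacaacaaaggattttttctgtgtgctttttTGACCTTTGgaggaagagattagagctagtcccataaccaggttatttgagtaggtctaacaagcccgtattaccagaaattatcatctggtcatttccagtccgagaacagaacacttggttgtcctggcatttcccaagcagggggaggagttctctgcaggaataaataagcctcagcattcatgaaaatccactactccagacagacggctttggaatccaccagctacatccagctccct
AHSG, chr3:186612810-186613109, plus strand: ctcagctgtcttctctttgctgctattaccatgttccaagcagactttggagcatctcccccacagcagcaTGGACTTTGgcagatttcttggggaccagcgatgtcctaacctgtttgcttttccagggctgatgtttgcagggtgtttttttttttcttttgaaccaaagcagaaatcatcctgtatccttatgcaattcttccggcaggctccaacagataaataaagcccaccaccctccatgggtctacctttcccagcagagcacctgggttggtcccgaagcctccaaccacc

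The motifs were chosen after the counts were seen and were searched on both strands. They were 3 forms of the HNF4 direct repeat core (CAAAGTCCA, CAAAGTTCA and CAAAGGTCA), the FOXA core TGTTTAC and the C/EBP palindrome TTGCGCAA. Over 35116 promoter windows of the same length, the HNF4 forms were found in 0.384%, 0.296% and 0.407%, the FOXA core in 3.42% and the C/EBP palindrome in 0.151%. AHSG held CAAAGTCCA on the opposite strand from base -179, counted from the transcript start, and SERPINA3 held CAAAGGTCA on the opposite strand from base -195. Both SERPINA1 windows and the F5 window held none of these letters, and neither did the windows of the other members with an entry. Only exact letters were searched. A window without a match may therefore hold a variant form of these motifs, or a motif that was not searched. A match is a description of letters, not of binding.

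In all, 6 members were never detected in any line: TTR, AMBP, FGA, FGB, FGG and SERPINA3 held at most 2 counts in each of the 26 libraries. TTR held 0 counts in all 26, which allows at most 0.00326 CPM over the 919194249 counts of the series. The 3 fibrinogen genes lie next to each other on chromosome 4 (FGB at 154562956 to 154571086, FGA at 154583126 to 154590766 and FGG at 154604134 to 154612967; GRCh38, GENCODE v29). FGA summed to 4 counts, FGB to 3 and FGG to 5 over all libraries. AMBP summed to 6 counts, of which 5 were in ASPC1, and SERPINA3 summed to 3. Without a filter on low counts, the lowest unadjusted p of AMBP in any comparison was 0.0351 (sgDual against sgP1, adjusted p = 0.152, edgeR). Expression below these counts was not detectable at this depth.

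ALB and AHSG lay just above the floor. ALB ranged from 0 to 5 counts and exceeded 3 counts in 8 libraries: both P2-a8 libraries of Panc10.05, at 5 counts each, and 6 of the 14 ASPC1 libraries. In BxPC3 ALB held at most 2 counts. AHSG ranged from 0 to 8 counts and exceeded 3 in 5 libraries, 2 of BxPC3 and 3 of ASPC1, with the top value in sgP1E replicate 2. GENCODE v29 places AC068631.1 on the opposite strand over AHSG and AL049839.2 on the same strand over SERPINA3, and the strand setting of the counts is not given in the sources used here, so these few counts cannot be assigned with certainty. Fitted without the filter, neither ALB (lowest unadjusted p 0.0549, lowest adjusted p 0.180) nor AHSG (0.0510 and 0.237) passed edgeR's test in any of the 12 comparisons.

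The number of undetected members was 8 of 10 in Panc10.05, 7 in BxPC3 and 6 in ASPC1. With the limit at 10 counts in place of 3, it was 9, 8 and 8. For scale, 27.2% of protein-coding genes were undetected at 3 counts in Panc10.05, 23.8% in BxPC3 and 28.3% in ASPC1, and over all libraries 19.0% of them against 6 of the 10 members and 23 of 60 other liver-secreted plasma protein genes. The genes beside the members under or near the floor were expressed in some cases and not in others. KIF12, 7.65 kb from AMBP, held 0 to 1 counts in Panc10.05 and in ASPC1 and 29 to 63 in BxPC3. GSC, 144 kb from SERPINA3, held 0 to 2 counts in BxPC3 and 0 in the other lines. DSG2, a desmosomal cadherin gene 8.002 kb from TTR, ranged from 243 to 1609 CPM. PLRG1, a splicing factor gene 12.5 kb from FGB, ranged from 47.0 to 66.4 CPM. AFP, the fetal relative of albumin 9.73 kb from ALB, held 0 to 16 counts.

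**Figure D1:**
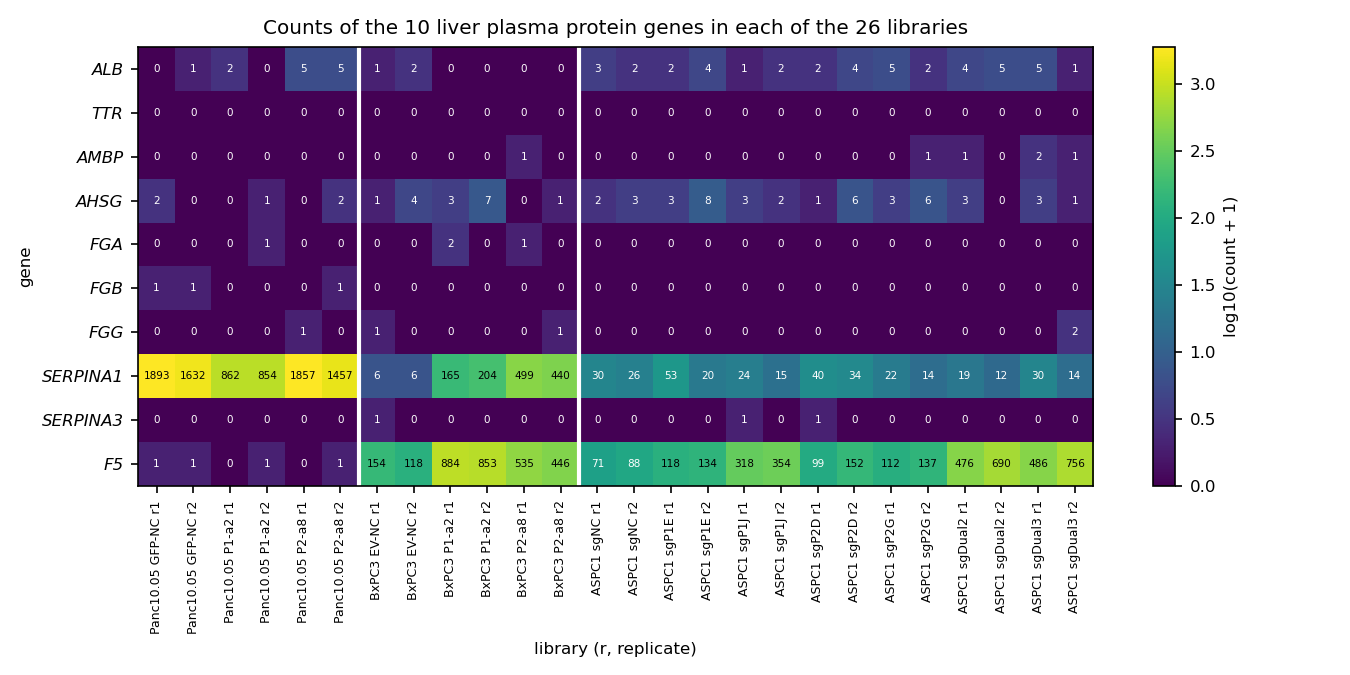
Counts of the 10 genes (rows) in each of the 26 libraries (columns, r is the replicate number), with colour on a log10(count + 1) scale and the count printed in each cell; white lines separate Panc10.05, BxPC3 and ASPC1. Only the SERPINA1 row, and the F5 row in BxPC3 and ASPC1, hold any value above 8 counts.

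SERPINA1 was the member with the widest range: 6 to 1893 counts, detected in all 26 libraries. It covers chr14:94376747-94390693 on the minus strand (GRCh38, GENCODE v29), and counts per gene do not separate its 14 annotated transcript starts. It was high in the Panc10.05 control, close to the floor in the BxPC3 control, and low in ASPC1, so that induction of HNF4A was followed by lower SERPINA1 in one line and higher SERPINA1 in the other.

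In Panc10.05 the control libraries held 45.5 and 47.3 CPM of SERPINA1, the P1-a2 libraries 22.1 and 18.6 and the P2-a8 libraries 39.7 and 41.05. Both P1-a2 libraries lay well below all others, and the P2-a8 libraries lay just under the controls with no overlap. SERPINA1 fell by 1.19 on the log2 scale with P1-a2 (SE 0.08, adjusted p = 9.55e-17). With P2-a8 it fell by 0.20 (SE 0.08, adjusted p = 0.0292), a call that was lost without either P2-a8 library (-0.17, adjusted p = 0.166, without replicate 1; -0.22, adjusted p = 0.0674, without replicate 2), without GFP-NC replicate 2 (-0.17, adjusted p = 0.131) and in DESeq2 (-0.21, adjusted p = 0.0785). P1-a2 lay 0.99 below P2-a8 on the log2 scale (log2 fold change -0.99, SE 0.08, adjusted p = 1.17e-13), a comparison in which dose and HNF4A level differed as well as isoform and cannot be told apart. SERPINA1 was the 1 member tested here. Over all 17247 genes tested, 31.5% rose and 30.5% fell with P1-a2, 23.7% and 22.5% with P2-a8, and 22.2% and 24.7% were higher and lower in P1-a2 than in P2-a8, so a call in either direction was common among all genes.

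In BxPC3 the direction was the opposite. The 2 control libraries held 6 counts of SERPINA1 each (0.223 and 0.164 CPM), the P1-a2 libraries 5.18 and 5.51 CPM and the P2-a8 libraries 14.3 and 13.5 CPM. The groups did not overlap, and P2-a8 was highest. SERPINA1 rose by 4.79 on the log2 scale with P1-a2 (SE 0.24, adjusted p = 1.51e-07) and by 6.17 with P2-a8 (SE 0.22, adjusted p = 4.32e-08), and was lower with P1-a2 than with P2-a8 (log2 fold change -1.37, SE 0.13, adjusted p = 6.49e-05). HNF4A did not differ past the threshold between these last groups (log2 fold change -0.33, interval -0.71 to 0.06, adjusted p = 0.217), which received the same dose. Both P2-a8 libraries (12.6 and 14.2 CPM of HNF4A) nonetheless lay above both P1-a2 libraries (9.76 and 11.6 CPM). Isoform and HNF4A level cannot be told apart in this comparison. Over all 17635 genes tested in BxPC3, 17.1% rose and 14.9% fell with P1-a2, 4.3% rose and 2.69% fell with P2-a8, and 11.6% were higher and 10.8% lower in P1-a2 than in P2-a8. With the replicate number as a block, the genes called went from 1232 to 2886 for P2-a8 against control and from 3963 to 5992 between the isoforms.

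The difference in response between the lines was tested in a joint fit of their 12 libraries, as the Panc10.05 change minus the BxPC3 change. For SERPINA1 it was -5.98 on the log2 scale with P1-a2 (SE 0.25, adjusted p = 2.31e-14) and -6.37 with P2-a8 (SE 0.24, adjusted p = 8.84e-15). Of 19372 genes in that fit, 36.4% differed between the lines with P1-a2 and 23.5% with P2-a8. For P1-a2 against P2-a8, where both lines had less SERPINA1 with P1-a2, the difference was 0.39 (SE 0.14, adjusted p = 0.0527), and 22.3% of genes passed. It passed the threshold with DESeq2 size factors (0.41, adjusted p = 0.0459), with the replicate number as a block (0.39, adjusted p = 0.0434) and without Panc10.05 P1-a2 replicate 2 (0.49, adjusted p = 0.0260). The lines also differ in control vector and dose, and these cannot be told apart from the line.

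In ASPC1, SERPINA1 was low: 12 to 53 counts per library. The sgNC libraries held 0.950 and 0.835 CPM. The 4 sgP1 libraries ran from 0.484 to 1.03 CPM, the 4 sgP2 libraries from 0.446 to 1.55 and the 4 sgDual libraries from 0.347 to 0.895, so the groups overlapped. None of the 6 comparisons passed the threshold in edgeR (lowest unadjusted p 0.0684, for sgDual against sgP2) or in DESeq2 (lowest adjusted p 0.146), sgDual against sgNC being -0.72 (SE 0.46, interval -1.70 to 0.26, adjusted p = 0.241). The 2 sgP2 guides did not overlap, with a mean of 1.30 CPM for sgP2D and 0.552 for sgP2G (log2 difference -1.20, SE 0.41, adjusted p = 0.263). That difference passed without a filter on low counts (-1.19, adjusted p = 0.0159) and with the replicate block (-1.23, adjusted p = 0.0149). Against sgP2, sgDual gave -0.75 (adjusted p = 0.123), and without the guide sgP2G -1.24 (adjusted p = 0.0194). Over all 18 alternatives this log2 difference ran from -1.24 to -0.03. The sgP2G mean of 0.552 CPM lay near the sgDual mean of 0.542, so the value depended on which sgP2 guide was kept.

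F5 was undetected in Panc10.05, at 0 or 1 count in every library of every group. The gene spans chr1:169514166-169586588 on the minus strand (GRCh38, GENCODE v29). It was expressed in BxPC3 and ASPC1, and in those lines it rose with opposite manipulations of HNF4A, induction in the first and repression of both promoters in the second.

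In BxPC3 the control libraries held 5.73 and 3.22 CPM of F5, the P1-a2 libraries 27.7 and 23.1 and the P2-a8 libraries 15.3 and 13.7. All 3 groups were separate, with P1-a2 highest. F5 rose by 2.54 on the log2 scale with P1-a2 (SE 0.23, adjusted p = 9.63e-05) and by 1.73 with P2-a8 (SE 0.23, adjusted p = 0.00388). The difference of P1-a2 over P2-a8 was 0.81 (SE 0.20, adjusted p = 0.0228). That call was lost on leaving out any 1 of the 4 libraries: the adjusted p was 0.117 without P1-a2 replicate 1, 0.0505 without P1-a2 replicate 2, 0.0823 without P2-a8 replicate 1 and 0.129 without P2-a8 replicate 2. Per kilobase of exon, F5 lay above SERPINA1 with P1-a2 (3.55 ± 0.46 against 1.09 ± 0.05 CPM per kb, SD, n = 2) and below it with P2-a8 (2.02 ± 0.16 against 2.83 ± 0.12). These 2 members were all that passed the filter in BxPC3, and both rose with either isoform. SERPINA1, at 6 counts in each control library, passed the filter through the induced groups, where it was high. That both rose is therefore not a result about the members as a set.

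In ASPC1 the sgNC libraries held 2.25 and 2.83 CPM of F5. The sgDual libraries held 13.7 and 19.9 (sgDual2) and 14.5 and 20.6 (sgDual3), above every other ASPC1 library. F5 rose by 2.76 on the log2 scale with sgDual against sgNC (SE 0.56, adjusted p = 0.00245) and lay above sgP2 by 2.08 (SE 0.40, adjusted p = 0.00121). Against sgP1 the difference was 1.361 (SE 0.39, adjusted p = 0.0153), but not with only the 2 groups in the fit (1.37, adjusted p = 0.0542), without guide sgDual2 (1.40, adjusted p = 0.0542) or without sgDual3 (1.33, adjusted p = 0.0667). Of 16992 genes tested, 17.8% rose and 17.8% fell with sgDual against sgNC, 18.6% and 19.7% were higher and lower against sgP1, and 22.8% and 23.5% against sgP2. Of the 2 members tested, F5 was called in these 3 comparisons and SERPINA1 in none. The fits behind these calls pool the 2 guides of a target as replicates. In the fit by guide, F5 rose against sgNC by 2.73 on the log2 scale with sgDual2 (SE 0.30) and by 2.79 with sgDual3 (SE 0.30).

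The 2 sgP1 guides differed for F5. The sgP1E libraries held 2.30 and 4.03 CPM and the sgP1J libraries 9.28 and 11.4, with no overlap, and sgP1E overlapped sgNC. The difference between the guides was 1.74 on the log2 scale (SE 0.29, adjusted p = 0.0019), and 14.5% of all genes differed between them. Against sgNC, sgP1J gave 2.03 (SE 0.30, adjusted p = 0.00323) and sgP1E 0.28 (SE 0.33, interval -0.43 to 1.00, adjusted p = 0.669), where 3.04% and 8.62% of genes passed. HNF4A was at 145 CPM with sgP1E and 114 with sgP1J, a difference that did not pass (log2 -0.35, adjusted p = 0.627). The pooled sgP1 group therefore had a wide spread, 6.76 ± 4.30 CPM (SD, n = 4), and did not pass against sgNC (log2 fold change 1.40, SE 0.54, adjusted p = 0.455). Without guide sgP1E it was 2.02 (adjusted p = 0.00045).

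With sgP2, F5 ranged from 3.36 to 4.69 CPM, above both sgNC libraries, but the log2 fold change of 0.68 did not pass (SE 0.54, interval -0.50 to 1.85, adjusted p = 0.570), nor did sgP2 against sgP1 (-0.72, SE 0.41, adjusted p = 0.378). Without guide sgP1E, sgP2 lay below sgP1 by a log2 fold change of -1.34 (adjusted p = 0.00035), and without sgP1J the sign turned (0.39, adjusted p = 0.436). The difference between the guides of sgP2 and between those of sgDual did not pass for F5 (log2 differences -0.15, interval -0.82 to 0.52, and 0.06, interval -0.48 to 0.61). Over all genes, 0.1% rose and 0.165% fell with sgP1, 1.66% and 1.76% with sgP2, 2.17% and 2.13% were higher and lower in sgP2 than in sgP1, and 1.69% and 0.883% differed between the guides of sgP2 and of sgDual. With the replicate block, the genes called went from 45 to 127 for sgP1, from 581 to 972 for sgP2, from 731 to 1204 for sgP2 against sgP1, and from 2467, 288 and 150 to 4616, 778 and 558 between the guides of sgP1, sgP2 and sgDual.

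**Figure D2:**
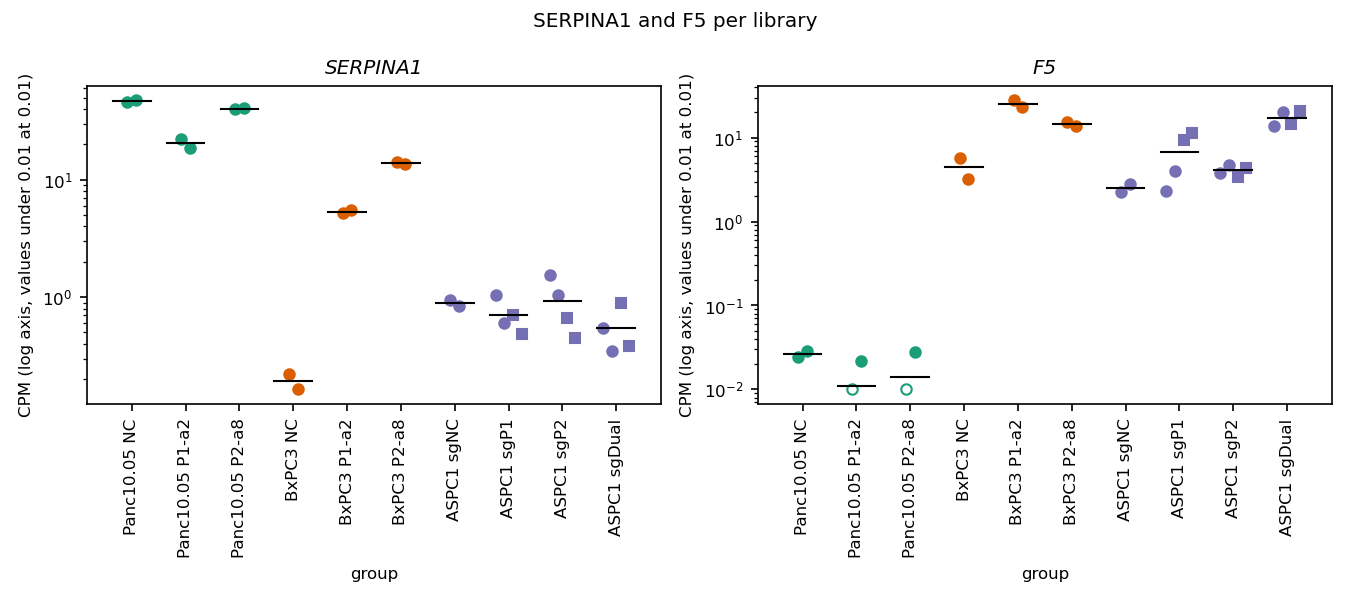
CPM of SERPINA1 (left) and F5 (right) in each library on a log axis, by group, with the group mean as a line; within an ASPC1 target, circles and squares are its 2 guides and open points are 0 counts drawn at 0.01. SERPINA1 is highest in the Panc10.05 control at 45.5 and 47.3 CPM, and F5 is highest in BxPC3 P1-a2 and in ASPC1 sgDual.

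**Figure D3:**
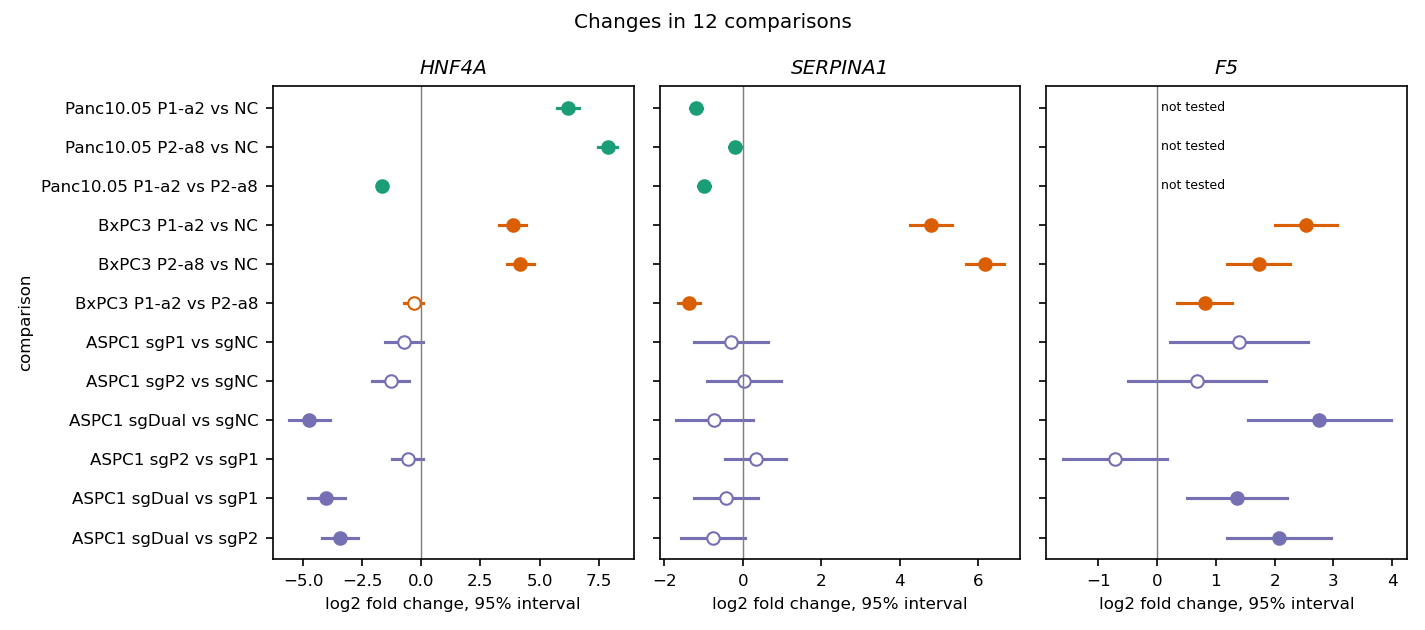
Log2 fold change with its 95% interval for HNF4A, SERPINA1 and F5 in the 12 comparisons, from edgeR; filled points passed an adjusted p of 0.05. SERPINA1 is below 0 in Panc10.05 and above 0 against control in BxPC3, and F5 is above 0 in both induced BxPC3 groups and with sgDual.

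Set beside HNF4A over the lines, the levels of neither gene followed it in 1 order. Tables were normalized separately, so levels are placed side by side without a test. In induced groups the HNF4A counts include the introduced isoform, and in ASPC1 they come from the cells' own gene. HNF4A levels may therefore not compare between the lines. SERPINA1 was highest in the Panc10.05 control, where HNF4A was lowest of all groups at 0.149 CPM, and was under 1 CPM in ASPC1 sgNC, where HNF4A was highest. F5 was at 14.5 CPM in BxPC3 P2-a8 with HNF4A at 13.4 CPM and at 17.2 CPM in ASPC1 sgDual with HNF4A at 7.99 CPM. By group mean, the order of SERPINA1 was Panc10.05 NC, P2-a8 and P1-a2, then BxPC3 P2-a8 and P1-a2, then ASPC1 sgP2, sgNC, sgP1 and sgDual, whose libraries overlapped, and last the BxPC3 control at 0.193 CPM. For F5 it was BxPC3 P1-a2, ASPC1 sgDual, BxPC3 P2-a8, ASPC1 sgP1, BxPC3 NC, ASPC1 sgP2 and sgNC, with Panc10.05 at the floor; sgDual overlapped BxPC3 P2-a8, and sgP1 overlapped the BxPC3 control, sgP2 and sgNC.

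**Figure D4:**
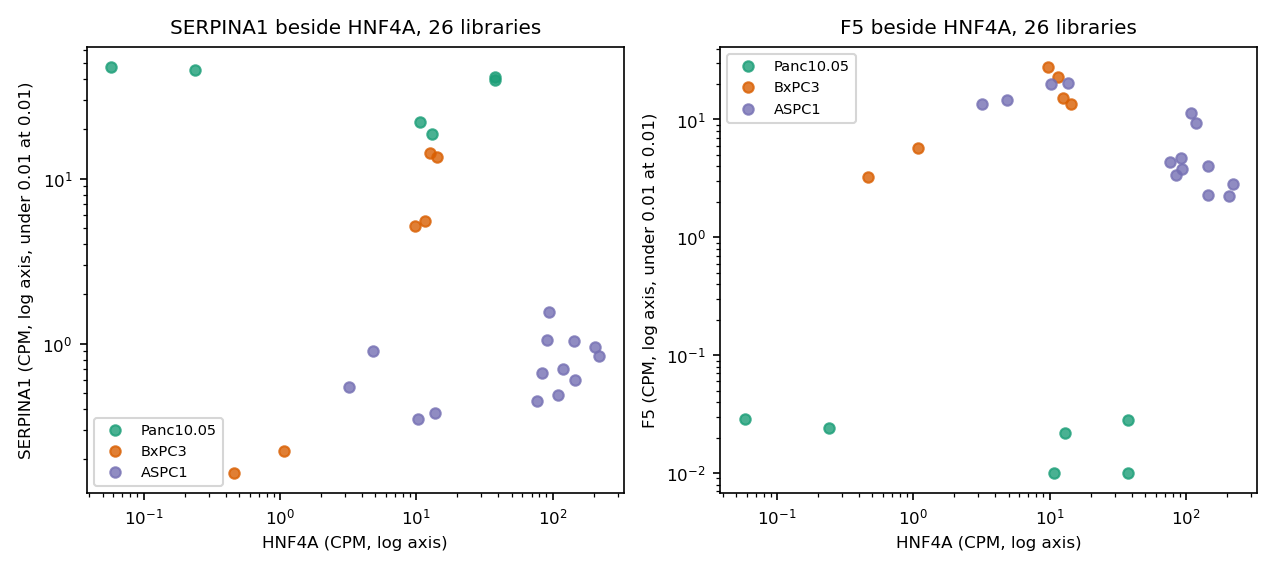
SERPINA1 (left) and F5 (right) against HNF4A in CPM, 1 point per library, both axes logarithmic, coloured by line; values under 0.01 are drawn at 0.01. F5 is between 13.7 and 20.6 CPM in the 4 ASPC1 libraries of lowest HNF4A, the sgDual ones, of which the replicate 2 points lie among the induced BxPC3 points.

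The genes around the expressed members were low or gave small differences in BxPC3 and ASPC1. SERPINA6 and SERPINA11, the nearest protein-coding genes to SERPINA1 in the serpin cluster of chromosome 14, held 0 to 5 counts and 0 counts. SELP, the P-selectin gene 2.26 kb from F5, held 0 to 14 counts. SLC19A2, a thiamine transporter gene 28.2 kb on the other side of F5, was expressed in every line. In BxPC3 its log2 fold change was 0.32 with P1-a2 (adjusted p = 0.0732) and 0.31 with P2-a8 (adjusted p = 0.184), and in ASPC1 it was -0.15 with sgDual against sgNC (adjusted p = 0.461), by edgeR. In Panc10.05, where F5 was undetected, SLC19A2 rose by 0.69 with P1-a2 (adjusted p = 3.70e-08) and by 0.53 with P2-a8 (adjusted p = 1.43e-05). The genes most alike to SERPINA1 over the libraries of a table, by Pearson correlation of log2 CPM, were VEPH1 and MCM9 in Panc10.05 (n = 6), IL17RE and NPNT in BxPC3 (n = 6) and FAF2 and ZFHX3-AS1 in ASPC1 (r = 0.868 and 0.864, n = 14). For F5 they were NSF and OSBPL10 in BxPC3 (n = 6) and GPR158 and KLK10 in ASPC1 (r = 0.969 and 0.965, n = 14). Libraries of a group share their treatment, so these correlations describe group differences.

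A list of 60 other plasma protein genes secreted by the liver was read in the same fits, and 15, 15 and 14 of them passed the filter in Panc10.05, BxPC3 and ASPC1. In Panc10.05, 11 of 15 rose and 1 fell with P1-a2 (median log2 fold change 1.18, against 0.02 over all genes tested, of which 31.5% rose and 30.5% fell). With P2-a8, 10 rose and 1 fell (median 1.41, against 0.00 over all genes, of which 23.7% rose and 22.5% fell). SERPINA1 fell in both comparisons. A gene near 0 in the control, as AGT (0.036 CPM) and VTN (0.048 CPM) were, passes the filter only through groups where it is high. Rises are thus favoured among the genes tested, so these counts and medians show no trend of the list. The filter acts the same way in BxPC3 and ASPC1 and on each list below. The rises included AGT, angiotensinogen, at least 26.6-fold with P1-a2 and at least 30.8-fold with P2-a8 against a control at the floor of 3 counts per library, and HPX, the haem carrier hemopexin, from 0.525 ± 0.005 to 2.05 ± 0.11 CPM with P1-a2 (SD, n = 2; adjusted p = 7.09e-08). VTN, the adhesion protein vitronectin, went from 0 and 0.0961 CPM to 5.68 and 6.31 with P2-a8 (log2 fold change 6.75, adjusted p = 7.07e-19). SERPINF2, the inhibitor of plasmin, fell by 0.61 with P1-a2 (adjusted p = 0.00097) and by 0.37 with P2-a8 (adjusted p = 0.0482). Between the isoforms, 1 gene of the list was higher and 7 lower with P1-a2, where 22.2% and 24.7% of all genes were.

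In BxPC3 the list was mixed: 6 of 15 rose and 5 fell with P1-a2 (median 0.33, against -0.01 over all genes, of which 17.1% rose and 14.9% fell). With P2-a8, 6 rose and 3 fell (median 0.09, against 0.01 over all genes, of which 4.3% rose and 2.69% fell). AGT rose at least 39.3-fold with P1-a2 and at least 50.9-fold with P2-a8, and VTN at least 21.3-fold with P1-a2. AZGP1, zinc-alpha-2-glycoprotein, rose by 4.84 on the log2 scale with P2-a8 (adjusted p = 2.38e-06). CP, the copper carrier ceruloplasmin, fell by 2.04 with P1-a2 (adjusted p = 0.00446), and LRG1, a leucine-rich acute-phase glycoprotein, fell by 0.90 (adjusted p = 6.26e-05). SAA2 and SAA1, acute-phase serum amyloid genes, fell by 1.70 and 1.08 with P2-a8 (adjusted p = 0.00456 and 0.00906); they are near-identical copies and their split of reads is uncertain. RBP4, the retinol carrier, named after its values were seen, stood at 12.5 CPM with P1-a2 and 0.585 with P2-a8 (log2 difference 4.402, adjusted p = 5.57e-06). Between the isoforms, 4 genes of the list were higher and 2 lower with P1-a2, where 11.6% and 10.8% of all genes were.

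In ASPC1 no gene of the list passed edgeR's test with sgP1 or sgP2 against sgNC (3 and 6 of 14 had an unadjusted p under 0.05; no other tool was run on the list), and 6 of 14 rose and 3 fell with sgDual (median 0.54, against 0.00 over all genes, of which 17.8% rose and 17.8% fell). C4BPA, the binding protein of complement C4b, rose by 2.68 (adjusted p = 8.12e-06) and LRG1 by 1.94 (adjusted p = 0.00937). AZGP1 fell from 27.3 ± 2.4 CPM (SD, n = 2) to 1.38 ± 0.52 (n = 4; log2 fold change -4.30, adjusted p = 0.000663), and F12, coagulation factor XII, fell by 1.23 (adjusted p = 0.000263). These values pool the sgDual guides, which are not given apart for the list. Set beside BxPC3, 7 genes of the list were called both with P1-a2 there and with sgDual in ASPC1. Of these, 3 rose in both, as F5 did: VTN, PROC, which encodes the anticoagulant protein C, and RBP4. AGT and AZGP1 rose in BxPC3 and fell with sgDual, and LRG1 and SERPINF2 fell in BxPC3 and rose with sgDual. The difference between these responses was not tested. The share of all genes called in both comparisons is not given here, so these counts are only a description. With P2-a8 in place of P1-a2, 6 genes were called in both: the same ones without SERPINF2, in the same directions. VTN was low in ASPC1, at 0.343 CPM with sgDual against 0.0317 with sgNC. AGT was low there too, at 0.0362 CPM with sgDual, a mean under the floor of 3 counts, against 0.223 with sgNC. Against sgP1, sgDual gave 6 higher and 2 lower (18.6% and 19.7% of all genes), against sgP2 6 higher and 5 lower (22.8% and 23.5%), and sgP2 against sgP1 gave 1 and 1 (2.17% and 2.13%). In GENCODE v29, genes on the opposite strand overlap VTN, CP, C4BPA and F12, and genes on the same strand overlap AGT, VTN, LRG1, SAA1 and SAA2, so their counts carry the same uncertainty as AHSG.

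**Figure D5:**
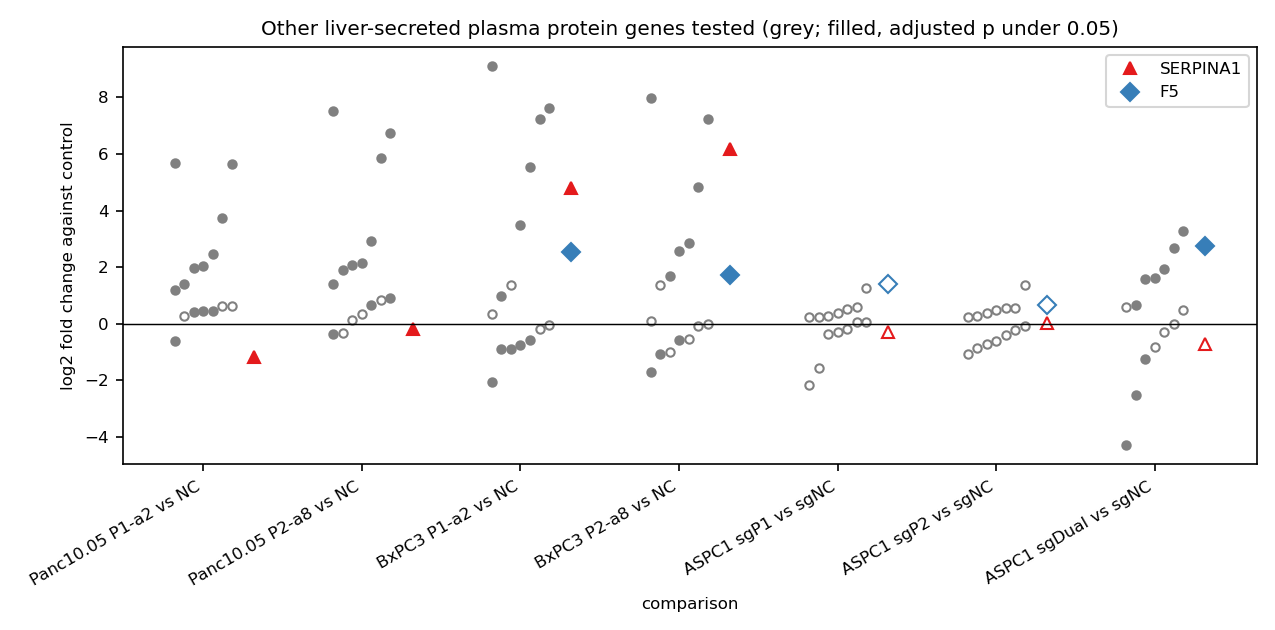
Log2 fold change against control of the genes of the wider plasma protein list that passed the filter (grey points), with SERPINA1 (triangles) and F5 (diamonds) beside them, in 7 comparisons; filled points passed an adjusted p of 0.05. SERPINA1 lies below 0 in Panc10.05, where 11 and 10 of 15 grey points rose, and F5 lies above 0 with sgDual in ASPC1.

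Hepatocyte genes that are not secreted were low in all lines. Of 15 such markers, 6 exceeded 3 counts in Panc10.05, 10 in BxPC3 and 9 in ASPC1. Their summed level was 0.924 to 4.93 CPM in Panc10.05, 33.1 to 40.5 in BxPC3 and 1.34 to 4.02 in ASPC1. In BxPC3 the sum was 33.1 to 34.3 CPM in the control, 33.3 to 35.7 with P1-a2 and 37.0 to 40.5 with P2-a8, while single genes of the list moved. Of the 10 tested there, 4 rose and 1 fell with P1-a2 (median log2 fold change 1.07, against -0.01 over all genes; 17.1% and 14.9% of all genes rose and fell), and 3 rose and 0 fell with P2-a8 (median 0.85, against 0.01; 4.3% and 2.69% of all genes). The part of these genes in the SERPINA1 result was not tested. TAT, SLC10A1, ARG1 and ASGR2, which mark mature hepatocytes, were not above 3 counts in any line. Summed leukocyte markers in ASPC1, which include LYZ, were 55.6 to 81.4 CPM with sgDual and 39.7 to 47.8 with sgNC. With sgP1 and sgP2 they were 15.3 to 38.4 and 15.9 to 19.7 CPM. Fibroblast markers were 279 to 300 CPM with sgDual, 165 to 179 with sgNC, 178 to 200 with sgP1 and 132 to 168 with sgP2. The part of these markers in the F5 result was not tested. These are bulk libraries of cell lines, and the sums are levels of marker genes, not counts of cells. Fewer cells that express a gene and less of its RNA per cell cannot be told apart.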

How the data were processed

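RNA-seq counts per gene were used from 26 libraries of 3 cell lines, in 3 tables. The deposited counts are whole numbers with no normalization, made by the authors from poly(A) RNA and a directional library kit, per the labels' protocols. The submitters' processing notes name cutadapt 1.16, STAR 2.7.9a, featureCounts 1.6.3, DESeq2 1.36.0 and GRCh38; the strand setting and annotation are not given in the sources used here. Reads of overlapping genes and near-identical copies may therefore be misassigned.

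Groups followed the genotype labels. In ASPC1 the guides of a target thus form 1 group, and its p-values treat libraries of different guides as replicates. Symbols matched 99.9% of identifiers. CPM is the count divided by the library's total over the genes tested, scaled by its TMM factor, times 1000000. The limit given for TTR over all libraries uses the unscaled totals. Each table was fitted apart in R 4.3.3 with edgeR 4.0.16 (filterByExpr, TMM scaling, glmQLFit with robust estimation, glmQLFTest), with p-values adjusted by Benjamini-Hochberg over all genes tested and a threshold of 0.05. Differences between lines came from a joint fit of 12 libraries and differences between guides from a fit by 7 guides. In a single group n is 2 or 4, which limits precision. A member at 3 counts or fewer was at the floor. Alternatives were DESeq2 1.42.0, other size factors, no filter, a 10-count floor, a log2 limit of 1, only the groups compared, the replicate block, and leaving out each library or guide. Same-numbered libraries deviated from their group means together in BxPC3 (correlations of 0.13 to 0.24 over 3 pairs of groups) and in ASPC1 (0.15 to 0.50 over 21 pairs of guides), and not in Panc10.05 (-0.02 to 0.02). The pairing in BxPC3 and ASPC1 comes from these correlations, since no label ties a number to a batch; the main fits have no block.

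All 10 members are reported. Of the wider list, up to 2 rises and 2 falls per comparison with a control are named, among genes past the threshold, with a mean of at least 1 CPM and no overlap between groups; RBP4 and PROC are exceptions, named after their values were seen. The members and lists were chosen with earlier results of these data known. Between replicates, chi-square per degree of freedom was 5.53 to 26.9, so no library was counted as a duplicate. Figures were drawn with matplotlib 3.10.9.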

Additional observations from a re-analysis of the deposited data

Results flagged for a closer look

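AHSG stood at 0.241 CPM (8 counts) in sgP1E replicate 2, far from the other 3 sgP1 libraries; chance marks about 1 in 20 such groups, and 11 were examined. The SERPINA1 response differed between Panc10.05 and BxPC3, by -5.98 on the log2 scale with P1-a2 and by -6.37 with P2-a8 (edgeR, joint fit), with SERPINA1 lower than control in all 4 induced Panc10.05 libraries and higher in all 4 of BxPC3.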

How the results depend on the processing

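The number of members called changed in 9 comparisons. With a log2 limit of 1 it went to 0 for P2-a8 against control and for P1-a2 against P2-a8 in Panc10.05, and to 1 for P1-a2 against P2-a8 in BxPC3. DESeq2 gave 0 for P2-a8 against control in Panc10.05. Without guide sgP1E it was 1 for sgP1 against sgNC and 1 for sgP2 against sgP1. For sgDual against sgP1 it was 0 with only the 2 groups, 0 without guide sgDual2 and 0 without guide sgDual3, and for sgDual against sgP2 it was 2 without guide sgP2G. The line difference of P1-a2 against P2-a8 gave 1 with DESeq2 size factors and 1 with the replicate block, and the guide difference of sgP2 gave 1 with no filter and 1 with the replicate block. Leaving out each library gave 0 to 1 for P2-a8 against control in Panc10.05, 1 to 1 for P1-a2 against P2-a8 in BxPC3, 1 to 2 for sgDual against sgP2 and 0 to 1 for the line difference of P1-a2 against P2-a8. The cause was not tested.

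Signs turned only for values that were not called. Without guide sgP2D, SERPINA1 was -0.69 for sgP2 against sgNC and -0.38 for sgP2 against sgP1, and without sgP1J F5 was 0.39 for sgP2 against sgP1. Leaving out single libraries, SERPINA1 ran from -0.31 to 0.25 for sgP2 against sgNC, from -0.01 to 0.60 for sgP2 against sgP1 (lowest -0.0079) and from -0.23 to 1.00 between the sgDual guides. F5 ran from -0.35 to 0.025 between the sgP2 guides, from -0.21 to 0.36 between the sgDual guides and from -2.95 to 1.29 for the line difference of P1-a2 against P2-a8, where Panc10.05 is at the floor.

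Besides the line difference of P1-a2 against P2-a8 and the guide difference of sgP2, the replicate block changed no call of a member. The numbers of genes called over all genes fell without single libraries: to 495, 653 or 788 for P2-a8 against control in BxPC3 (without EV-NC replicate 2, EV-NC replicate 1 or P2-a8 replicate 2), to 2538 or 2566 for P1-a2 against P2-a8 (without P2-a8 replicate 1 or P1-a2 replicate 2), and to 7 or 1, 63 or 57 and 2775 for sgP1, sgP2 and sgDual against sgNC without an sgNC library (replicate 1 or 2; replicate 1 alone for sgDual). For sgP1 against sgNC it was 1242 without guide sgP1J and 262 without sgP1E, and DESeq2 gave 245; for sgP2 against sgNC DESeq2 gave 1118. For sgP2 against sgP1 it ran from 189 with only the 2 groups to 2764 without guide sgP1E, and for sgDual against sgP1 it was 4320 without guide sgDual3. The guide differences fell to as few as 1484, 135 and 53 genes without 1 library. With 0 to 8 counts per library in ALB, TTR, AMBP, AHSG, FGA, FGB, FGG and SERPINA3, falls and small changes were not detectable at this depth.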
